A study of Mus musculus with 9 samples.

Results

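A set of 30 genes was described that were induced by RANKL in RAW264.7 cells, kept most of that induction when uridine (UD) was present, and belonged to no KEGG pathway in the authors' annotation. They were chosen from the 56691 genes of the deposited expression table by their own levels. The mean FPKM of each group, plus 0.1, gave C for control, R for RANKL and U for RANKL + UD. FPKM is the read count of a gene scaled to its exonic length and to the total count of its library. A gene without a pathway was kept when R was at least 3, R/C was at least 3 and U/R was at least 0.85, and genes whose symbols start with Mir or Snor and 3 known osteoclast genes (Dcstamp, Ocstamp and Oscar) were left out by name. Since these ratios chose the genes, their levels in the 3 groups are given as a description without a test, and both ratios share the RANKL libraries. Of the 56691 genes, 40611 had no pathway, and tests across all genes covered the 11995 that reached an FPKM of 1 in 3 or more libraries. All 30 members passed that filter, which their RANKL level alone would ensure.

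RAW264.7 is a clonal mouse macrophage line whose cells fuse into multinucleated osteoclast-like cells under RANKL, the cytokine that drives osteoclast formation. RNA was sequenced from 9 cultures, 3 untreated (control), 3 with RANKL (50 ng/mL according to the methods) and 3 with RANKL plus UD, a pyrimidine nucleoside, all collected after 3 days. The labels call the libraries of a group separate biosamples of this 1 line, and the UD dose of these libraries is not given in the sources used here.

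Osteoclasts arise from macrophage precursors that fuse, rebuild their actin cytoskeleton into a sealing ring, and deliver lysosomal proteases and proton pumps to a ruffled border facing bone. RANKL acts through its receptor RANK on NF-kB, AP-1 and the master factor NFATc1. Pathway maps cover many receptors, kinases and lysosomal enzymes of this programme, while other genes, protein-coding or not, are on no map.

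Library totals ranged from 15951800 to 19746862 counts with a median of 19182637. The defining osteoclast markers, 10 genes, summed to 57.6 to 60.3 FPKM in control, 2720 to 2920 in RANKL and 1720 to 1760 in RANKL + UD libraries. All 9 markers that were tested rose with RANKL and fell with UD (edgeR quasi-likelihood test, adjusted p under 0.05). Macrophage markers summed to 9550 to 10200 FPKM in control, 2520 to 2760 in RANKL and 2200 to 2340 in RANKL + UD, with Marco at 0 throughout. Lyz2 alone gave 8000, 1430 and 1290 FPKM of this as group means. Of the 8 tested, 7 fell with RANKL and Cd68 rose (549 ± 43.4 to 782 ± 41.3 FPKM), at the same threshold. With UD, 5 fell and Adgre1 rose (10.1 ± 0.61 to 12.6 ± 0.939 FPKM). T cell, B cell, neutrophil and fibroblast or osteoblast markers summed to at most 2.5, 0.29, 0.27 and 1.86 FPKM in any library, and erythroid markers were at 0. Dendritic cell markers summed to 14.3 to 14.9, 40.5 to 44.0 and 17.3 to 19.1 FPKM in the 3 groups, with Flt3 at 0. Nearly all of this was Itgax, with group means of 14.1, 40.9 and 16.8 FPKM. Zbtb46 measured 0.32, 0.977 and 1.12, and the means of Xcr1 and Cd209a were at most 0.0367. In such bulk samples, fewer cells of a type and less RNA per cell cannot be told apart, and whether these marker levels have a part in those of the 30 genes was not tested.

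With RANKL, 202 genes passed the limits on R and R/C, 100 of them without a pathway. Mir674 (U/R 0.79), Dcstamp (U/R 0.69) and Ocstamp (U/R 0.56) were set aside by name, each also under the limit of 0.85. Oscar, excepted by name too, had a pathway and was counted with the genes that have one. Of the rest without a pathway, 67 genes had a U/R under 0.85 and 30 were members. A U/R of at least 0.85 was found in 30.9% of the 97 remaining genes without a pathway and in 31.4% of the 102 induced genes with a pathway. Median U/R was 0.72 and 0.75 for these groups, so most induced genes of either kind were lower with UD and the members formed the upper end of one continuous range. The limit of 0.85 cut through a dense stretch of that range. Tmem204 (0.852), Dock5 (0.853) and Sgsm1 (0.893) lay just inside, and Clec4a2 (0.847), Msantd3 (0.846) and Gm21188 (0.846) lay just outside. In all, 11 induced genes without a pathway had a U/R between 0.765 and 0.85.

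**Figure D1:**
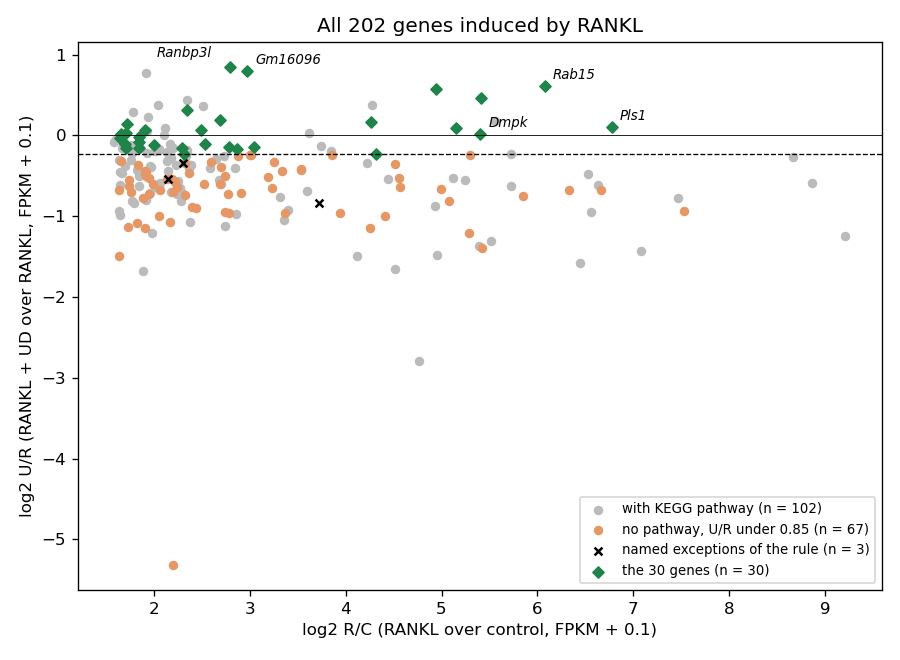
Each point is 1 of the 202 genes induced by RANKL, with log2 R/C on the horizontal and log2 U/R on the vertical axis (FPKM + 0.1). The 30 members (green diamonds) lie on or above the dashed line at a U/R of 0.85, where genes with a pathway (grey) are found too.

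Among the members, R/C ranged from 3.14 to 109 with a median of 5.72, and U/R ranged from 0.852 to 1.79 with a median of 1.01. The RANKL level ran from 2.94 to 132 FPKM (median 10.6), the control level from 0 to 41.9 (median 1.56) and the RANKL + UD level from 2.62 to 129 (median 11.8). For comparison, the median RANKL level over all tested genes was 6.47 FPKM, and 19 members were above it. All RANKL libraries lay above all control libraries for 30 of 30 members, beside 22.9% of all tested genes, and so did all RANKL + UD libraries, beside 29.5%. The limits on the ratios made both likely, and nothing is read from them. The members were spread over 14 chromosomes. By the GENCODE annotation, 22 were protein-coding and 7 carried another type, and 1 identifier had no entry.

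**Figure D2:**
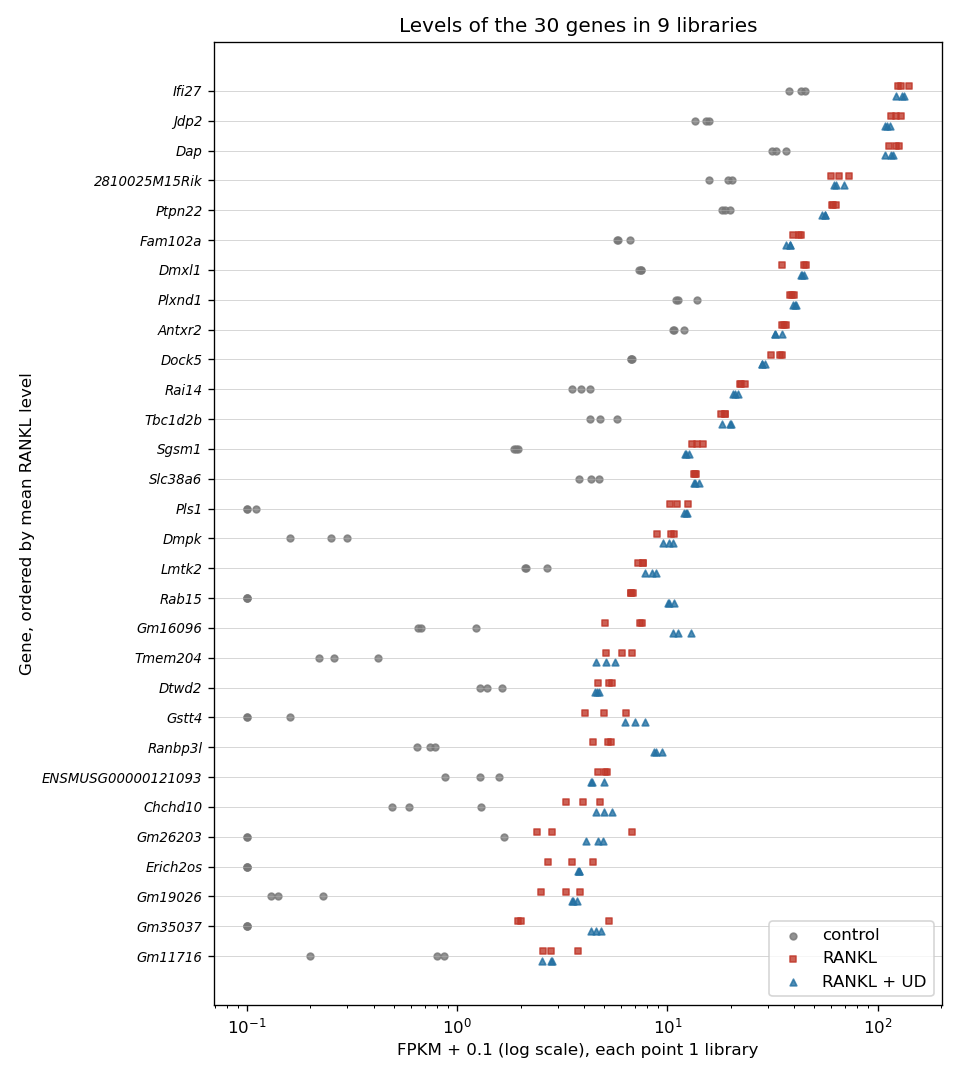
FPKM + 0.1 on a log scale in each of the 9 libraries for the 30 genes, ordered by their mean RANKL level. Control libraries (grey circles) lie to the left of RANKL (red squares) and RANKL + UD libraries (blue triangles) for every gene, and the last 2 groups overlap for 20 genes.

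Jdp2, a bZIP factor that binds AP-1 sites as a dimer with Jun proteins and has a known role in osteoclast formation, was among the most strongly expressed members. It measured 13.49, 15.18 and 15.64 FPKM in control, 116.09, 121.91 and 129.6 in RANKL, and 114.08, 108.66 and 110.27 in RANKL + UD libraries. Its mean was thus 8.3-fold higher with RANKL than in control. All RANKL + UD libraries lay below all RANKL libraries, with a U/R of 0.906 that was close to the limit. Jdp2 was the only member on a list of 40 genes linked to osteoclasts, of which 33 were tested. RefSeq gives Jdp2 3 starts in GRCm38.p6. The second is shown because its window (250 bases before to 50 after the start, chr12:85599166-85599465, plus strand) held both a PU.1 site (GAGGAAG, here on the other strand) and a C/EBP-ATF element (TGATGNAA), the letters in capitals. Here and in the promoters that follow, the short NFAT and hypoxia cores are left in lower case.
Jdp2 promoter: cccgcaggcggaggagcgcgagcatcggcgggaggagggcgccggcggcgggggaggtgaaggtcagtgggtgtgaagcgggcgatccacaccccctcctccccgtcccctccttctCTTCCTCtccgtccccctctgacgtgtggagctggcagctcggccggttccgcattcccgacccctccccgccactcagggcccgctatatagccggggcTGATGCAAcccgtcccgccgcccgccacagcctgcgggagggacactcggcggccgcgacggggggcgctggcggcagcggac

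Ranbp3l and Dap were further members with regulatory roles. Ranbp3l, a Ran-binding protein that exports SMAD proteins from the nucleus, had the highest U/R of the set (1.79). Its level was 0.64, 0.68 and 0.54 FPKM in control, 5.27, 5.13 and 4.32 in RANKL, and 8.7, 9.37 and 8.57 in RANKL + UD libraries. Every RANKL + UD library exceeded every RANKL library, and every RANKL library exceeded every control library. Dap, a negative regulator of autophagy, was high in all groups, at 33.7 ± 2.71 FPKM (SD, n = 3) in control, 121 ± 6.51 in RANKL and 114 ± 5.05 in RANKL + UD. The RANKL and RANKL + UD libraries of Dap overlapped.

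Several members act on actin, cell shape or motility. Pls1 encodes plastin-1, an actin-bundling protein of microvilli and stereocilia. Control libraries held 0, 1 and 0 counts of Pls1, RANKL libraries 954, 764 and 823, and RANKL + UD libraries 940, 752 and 816. With 1 count in control, the ratio of RANKL to control counts, pooled over each group and scaled to library totals, was 2290. Its exact 95% counting interval was 411 to 90600. In FPKM the RANKL libraries measured 12.45, 10.16 and 11.03 and the RANKL + UD libraries 12.29, 11.85 and 12.14, so that the latter lay within the range of the former. The only Pls1 promoter in the table (chr9:95845230-95845529, minus strand) is shown as that of the member with the highest R/C (with 0.1 added to each mean) and, as no motif searched was found in it, without capitals.
Pls1 promoter: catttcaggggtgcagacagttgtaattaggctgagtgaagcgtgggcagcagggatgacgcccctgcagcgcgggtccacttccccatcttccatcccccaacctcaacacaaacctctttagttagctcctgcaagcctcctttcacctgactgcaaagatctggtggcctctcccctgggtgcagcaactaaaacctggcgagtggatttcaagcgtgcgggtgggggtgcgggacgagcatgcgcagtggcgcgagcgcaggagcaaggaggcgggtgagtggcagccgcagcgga

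Rai14, an actin-binding ankyrin repeat protein, measured 3.8, 3.42 and 4.19 FPKM in control, 23.43, 22.2 and 21.99 in RANKL, and 20.87, 20.51 and 21.61 in RANKL + UD libraries. Dock5, an activator of the small GTPase Rac that is required for the osteoclast sealing ring, measured 6.66, 6.63 and 6.61, then 35.03, 34.18 and 30.9, and then 28.04, 29.07 and 28.24. For both genes the RANKL + UD libraries lay below the RANKL libraries and far above the control libraries, and for Dock5 the U/R of 0.853 only just met the limit. Plxnd1, a receptor for semaphorins that acts on cell adhesion and motility, was alike in the RANKL (39.2 ± 0.92 FPKM) and RANKL + UD groups (40.1 ± 0.74), against 11.9 ± 1.61 in control.

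Genes of vesicle traffic formed the next group. Rab15 is a small GTPase of early and recycling endosomes. It had 0 counts in each control library, 6.75, 6.58 and 6.61 FPKM in RANKL, and 9.93, 10.7 and 10.05 in RANKL + UD libraries. Set against the limit of 3 counts over the control group, Rab15 was at least 537-fold higher in RANKL and at least 825-fold higher in RANKL + UD. The RANKL + UD libraries all lay above the RANKL libraries (U/R 1.53), and the RANKL libraries differed among themselves by little, with a SD of 0.0907 FPKM. The body of Rab15 (chromosome 12, positions 76844734 to 76869682 in the deposited coordinates, minus strand) overlaps Fntb on the other strand, whose level was 2.65, 2.18 and 2.58 FPKM in the 3 groups. RefSeq lists 4 Rab15 starts. The third (chr12:76818325-76818624, minus strand) is shown as the only promoter of the set that held both an AP-1 site (TGANTCA) and an M-box (TCATGTG, a site of the MITF and TFE factors), in capitals the letters in capitals.
Rab15 promoter: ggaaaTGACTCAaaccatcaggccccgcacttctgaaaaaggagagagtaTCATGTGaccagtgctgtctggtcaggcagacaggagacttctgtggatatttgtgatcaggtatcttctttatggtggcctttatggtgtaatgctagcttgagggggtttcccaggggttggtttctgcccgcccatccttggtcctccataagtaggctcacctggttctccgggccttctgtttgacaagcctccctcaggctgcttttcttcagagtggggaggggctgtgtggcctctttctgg

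The other traffic genes were also detected in control. Tbc1d2b, a GTPase-activating protein for Rab proteins, measured 4.2, 4.67 and 5.64 FPKM in control, 18.71, 18.72 and 17.82 in RANKL, and 18.03, 19.84 and 19.91 in RANKL + UD libraries. Sgsm1, of the same class of Rab regulators, measured 1.8 ± 0.04, 13.8 ± 0.835 and 12.3 ± 0.295 FPKM, and its RANKL + UD libraries lay below its RANKL libraries. Dmxl1, a partner of the vacuolar proton pump that acidifies endosomes and lysosomes, measured 7.35, 7.37 and 7.24 in control, 45.74, 44.44 and 34.98 in RANKL, and 42.92, 44.77 and 43.44 in RANKL + UD. One RANKL library was lower than the others for Dmxl1, and the RANKL + UD libraries fell inside that range.

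Kinases, a phosphatase and receptors made up a further group. Dmpk, the serine/threonine kinase whose gene is mutated in myotonic dystrophy, measured 0.15, 0.06 and 0.2 FPKM in control, 8.81, 10.66 and 10.26 in RANKL, and 9.45, 10.12 and 10.55 in RANKL + UD. It was 72.5-fold higher in RANKL than in control on the group means, and its RANKL and RANKL + UD libraries overlapped. Lmtk2, a membrane kinase of endosomal traffic, measured 1.99, 2.57 and 2.03, then 7.59, 7.57 and 7.17, and then 8.31, 7.75 and 8.7, with all RANKL + UD libraries above the RANKL libraries by a small margin (U/R 1.11). Ptpn22, a tyrosine phosphatase of immune cell signalling, measured 18.8 ± 0.831 FPKM in control, 61.9 ± 1.64 in RANKL and 55.6 ± 0.94 in RANKL + UD, and its RANKL + UD libraries lay below its RANKL libraries. Antxr2, a cell surface receptor that binds collagen and anthrax toxin, measured 11 ± 0.72, 35.8 ± 0.759 and 33.4 ± 1.45, with 1 RANKL + UD library (35.06) inside the RANKL range. Tmem204, a membrane protein of cell junctions, rested on 235 to 304 counts in a RANKL library and measured 0.2 ± 0.106, 5.88 ± 0.828 and 4.99 ± 0.545 FPKM, with overlapping RANKL and RANKL + UD libraries.

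Gstt4 is a theta-class glutathione transferase, an enzyme family that conjugates glutathione to electrophiles. It had 0, 0 and 1 counts in control libraries, 3.95, 4.87 and 6.22 FPKM in RANKL, and 7.72, 6.94 and 6.15 in RANKL + UD libraries. From counts pooled over each group and scaled to library totals, the ratio of RANKL to control was 260 (exact 95% counting interval 46.3 to 10300). The RANKL + UD libraries reached above the RANKL libraries but overlapped them. As Gstt4 belongs to a family of similar genes, reads could be shared among them. Chchd10, a small protein of the mitochondrial intermembrane space, lies 110.6 kb from Gstt4 on chromosome 10. It measured 0.49, 0.39 and 1.19 FPKM in control, 3.19, 3.88 and 4.7 in RANKL, and 5.33, 4.87 and 4.45 in RANKL + UD, again with overlap and a U/R of 1.24. Its promoter (chr10:75932880-75933179, plus strand) is shown because it held 2 copies of the C/EBP-ATF element, the site of the stress factor ATF4 and its partners, in capitals.
Chchd10 promoter: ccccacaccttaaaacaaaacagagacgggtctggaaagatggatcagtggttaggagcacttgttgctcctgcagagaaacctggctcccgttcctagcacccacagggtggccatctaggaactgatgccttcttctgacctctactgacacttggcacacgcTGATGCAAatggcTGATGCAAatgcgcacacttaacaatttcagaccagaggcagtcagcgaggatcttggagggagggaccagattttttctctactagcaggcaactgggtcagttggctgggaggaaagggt

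Slc38a6, a member of the sodium-coupled neutral amino acid transporter family, measured 4.62, 4.24 and 3.71 FPKM in control, 13.5, 13.34 and 13.55 in RANKL, and 14.01, 13.31 and 13.41 in RANKL + UD. Its RANKL libraries were almost equal, and the RANKL + UD libraries lay around them (U/R 1.01). Dtwd2, an enzyme that modifies uridine in transfer RNA, measured 1.33 ± 0.179, 5.03 ± 0.395 and 4.52 ± 0.121 FPKM. It lies 77.1 kb from Dmxl1 on chromosome 18, and its RANKL and RANKL + UD libraries overlapped.

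Ifi27, an interferon-inducible mitochondrial protein, had the highest level of the set. It measured 44.88, 43.08 and 37.73 FPKM in control, 128.99, 125.42 and 140.97 in RANKL, and 133.64, 122.91 and 130.75 in RANKL + UD. The 3.15-fold difference from control was the smallest of the set, and the RANKL and RANKL + UD libraries overlapped. Fam102a, whose product acts in signalling downstream of RANK, measured 5.98 ± 0.512, 41.7 ± 1.77 and 37.7 ± 0.968 FPKM. Its RANKL + UD libraries lay below its RANKL libraries and above all control libraries.

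Pseudogenes, antisense and other non-coding transcripts made up the rest of the set. 2810025M15Rik, a transcribed pseudogene that carries ribosomal gene terms, was the strongest of them, at 18.4 ± 2.33 FPKM in control, 66.2 ± 6.58 in RANKL and 65 ± 3.9 in RANKL + UD. Gm16096, a processed transcript on chromosome 9 (positions 40692038 to 40695477 as deposited, minus strand), measured 0.57, 0.55 and 1.13 FPKM in control, 7.3, 7.44 and 4.94 in RANKL, and 10.49, 12.79 and 11.18 in RANKL + UD. Its RANKL + UD libraries all lay above its RANKL libraries (U/R 1.74). Erich2os, an antisense transcript, had 0 counts in each control library and 47 to 80 in RANKL libraries, at least 56.9-fold higher, with 3.45 ± 0.855 FPKM in RANKL and 3.68 ± 0.02 in RANKL + UD. Gm11716, also antisense, was the lowest member, at 0.52 ± 0.365, 2.94 ± 0.639 and 2.62 ± 0.156 FPKM on 28 to 41 counts in a RANKL library. Gm19026, a processed pseudogene with cytoskeletal gene terms, measured 0.0667 ± 0.0551, 3.11 ± 0.675 and 3.49 ± 0.119, and the unnamed gene ENSMUSG00000121093 measured 1.14 ± 0.356, 4.87 ± 0.246 and 4.47 ± 0.364. Reads of a pseudogene can come from its parent gene, so the values of 2810025M15Rik and Gm19026 are uncertain.

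Single libraries decided whether some members met the rule. Ifi27 and Slc38a6 did not meet it without the third control library, nor Tmem204 and Dock5 without the second RANKL + UD library, nor Gm11716 without the first or the second RANKL library. The widest spread among RANKL libraries was found for a pair of non-coding members. Gm35037, a long intergenic transcript with 0 counts in control, measured 1.91, 1.84 and 5.15 FPKM in RANKL (19, 18 and 50 counts) and 4.73, 4.48 and 4.23 in RANKL + UD. It was at least 26.2-fold higher in RANKL than in control. The third RANKL library was above all RANKL + UD libraries and the others were below, and without that library the gene no longer met the rule. Gm26203, an annotated small nuclear RNA of 114 bases, measured 6.68, 2.72 and 2.29 FPKM in RANKL on 15, 6 and 5 counts and 4.02, 4.84 and 4.57 in RANKL + UD on 9 counts each. Its control libraries held 3, 0 and 0 counts, its first RANKL library was above all RANKL + UD libraries, and without that library it no longer met the rule.

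Over the set, the RANKL + UD libraries lay wholly above the RANKL libraries for 4 members (Ranbp3l, Gm16096, Rab15 and Lmtk2), beside 34.1% of all tested genes. They lay wholly below for 6 members (Rai14, Jdp2, Fam102a, Ptpn22, Sgsm1 and Dock5), beside 17.6% of all tested genes, and the groups overlapped for 20. FPKM rest on library totals, which put the median tested gene 0.086 higher with UD (log2) than TMM scaling does. With TMM scaling, 18.6% of tested genes rose and 20.2% fell with UD (edgeR, adjusted p under 0.05). The shares over all tested genes thus depend on the scaling. The limit on U/R set the counts of members in part, so they are not read further. U/R was at least 1 in 16 members, between 0.9 and 1.11 in 17, and at least 1.5 in 3. The members with a U/R of at least 1.5 were Ranbp3l, Gm16096 and Rab15, at 4.91, 6.56 and 6.65 FPKM in RANKL, while the 10 members over 30 FPKM in RANKL had a U/R between 0.853 and 1.05. The spread among replicates, as the coefficient of variation, had a median of 7.2% in RANKL (0.815% to 63.7%) and 4.32% in RANKL + UD (0.543% to 11.3%).

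**Figure D3:**
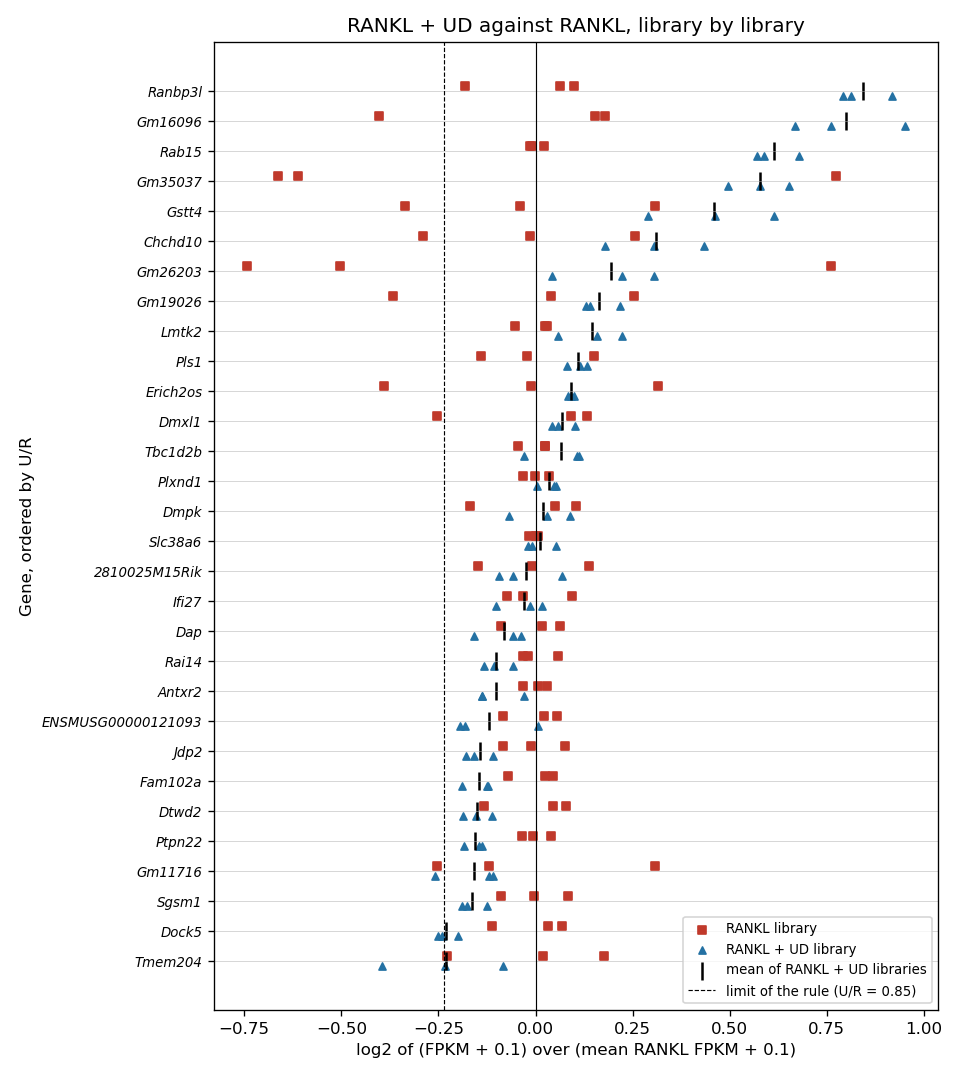
Each RANKL (red squares) and RANKL + UD library (blue triangles) as log2 of its FPKM + 0.1 over the mean RANKL FPKM + 0.1, for the 30 genes ordered by U/R. Black bars mark the mean of the RANKL + UD libraries, which runs from 0.84 for Ranbp3l to -0.23 at the dashed limit, and the wide RANKL spread of Gm35037 and Gm26203 stands out.

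The rule was also applied to the libraries of 2 replicate numbers and read in the libraries of the third, which had not chosen the genes. Libraries 2 and 3 chose 30 genes, of which 21 met all limits in libraries 1. Libraries 1 and 3 chose 40, of which 24 met them in libraries 2, and libraries 1 and 2 chose 29, of which 18 met them in libraries 3. The limit on U/R alone was met by 25, 34 and 25 genes. Read in this way, median log2 U/R was -0.04, -0.02 and -0.02 and median log2 R/C was 2.61, 2.16 and 2.36. Of the genes chosen, 26, 28 and 25 were members of the full set. The rule itself was set with results of all libraries known, and each reading rests on 1 library per group. These counts are therefore a description and not an independent check.

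Genes near the members on the chromosome were not chosen by the rule and could be tested. Within 50 kb of a member, 59 other genes were tested, and 26 of them (44.1%) rose with RANKL and 17 fell, beside 27.3% and 30.2% of all 11995 genes (edgeR, adjusted p under 0.05). Their median log2 fold change was 0.18, against -0.03 over all tested genes, and 11 were at least 3-fold higher, beside 3.21% of all genes. When genes that overlap a member were set aside, 19 of 47 rose (40.4%), of which 4 were at least 3-fold higher. With UD against RANKL, 9 of the 59 rose and 11 fell, beside 18.6% and 20.2% of all genes. These background counts moved with the scaling. With total counts in place of TMM, 2585 genes rose and 4415 fell with RANKL (3278 and 3628 with TMM), and 3348 rose and 1709 fell with UD (2233 and 2418). The neighbours named here were chosen after their values were seen.

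Dmwd, 1.1 kb from Dmpk and on the same strand, was induced with it. It measured 0.147 ± 0.0462 FPKM in control, 5.55 ± 0.245 in RANKL and 4.33 ± 0.325 in RANKL + UD. It rose with RANKL (log2 fold change 5.28 ± 0.214 SE, adjusted p = 7.69e-15, edgeR) and fell with UD (-0.45 ± 0.129, adjusted p = 0.00859), whereas Dmpk itself stayed at 9.91 ± 0.973 and 10 ± 0.554 FPKM. The difference between these neighbours was not tested. Each SE of a log2 fold change, here and below, was back-calculated from the F statistic of the test and is only approximate where control is near 0. Around Gstt4, 3 related genes were tested, of which Gstt1 (16.4 kb away) and Gstt3 (33.5 kb away) rose with RANKL. Gstt2, the nearest (8.6 kb away), measured 0.893 FPKM in control and 0.983 in RANKL (0.22, adjusted p = 0.327, edgeR), not past the threshold. Gstt1 rose by a log2 fold change of 7.63 ± 0.292 and fell with UD (-0.57 ± 0.137, adjusted p = 0.0024, edgeR). Gstt3 rose by 1.39 ± 0.119 and rose further with UD (0.46 ± 0.104, adjusted p = 0.00136, edgeR). Gstt1 and Gstt3 thus had opposite signs with UD, with the reservation that reads of similar genes could be split between them. Mif, the macrophage migration inhibitory factor, lies 36.8 kb from Gstt4 and rose from 112 ± 2.04 FPKM in control to 178 ± 19.7 in RANKL (0.76 ± 0.069, adjusted p = 4.71e-09, edgeR).

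Next to Ifi27 the direction was opposite. Ifi27l2a, a related interferon-inducible gene 1.9 kb away on the other strand, was at 268 ± 39.7 FPKM in control and fell to 61.4 ± 4.65 in RANKL (log2 fold change -2.04 ± 0.091, adjusted p = 4.12e-14, edgeR) and 54.6 ± 2.59 in RANKL + UD. Clcn7, the lysosomal chloride-proton exchanger of the ruffled border, lies 49.8 kb from Tmem204. It rose with RANKL (2.01 ± 0.053, adjusted p = 5.84e-18, edgeR) and fell with UD (-0.53 ± 0.049, adjusted p = 3.1e-08). St18 by Gm19026 and Ankrd33b by Dap rose with RANKL by 1.38 ± 0.064 and 2.71 ± 0.138, and with UD their log2 fold changes were -0.09 ± 0.06 (adjusted p = 0.246, edgeR) and -0.16 ± 0.111 (adjusted p = 0.266), neither past the threshold.

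**Figure D4:**
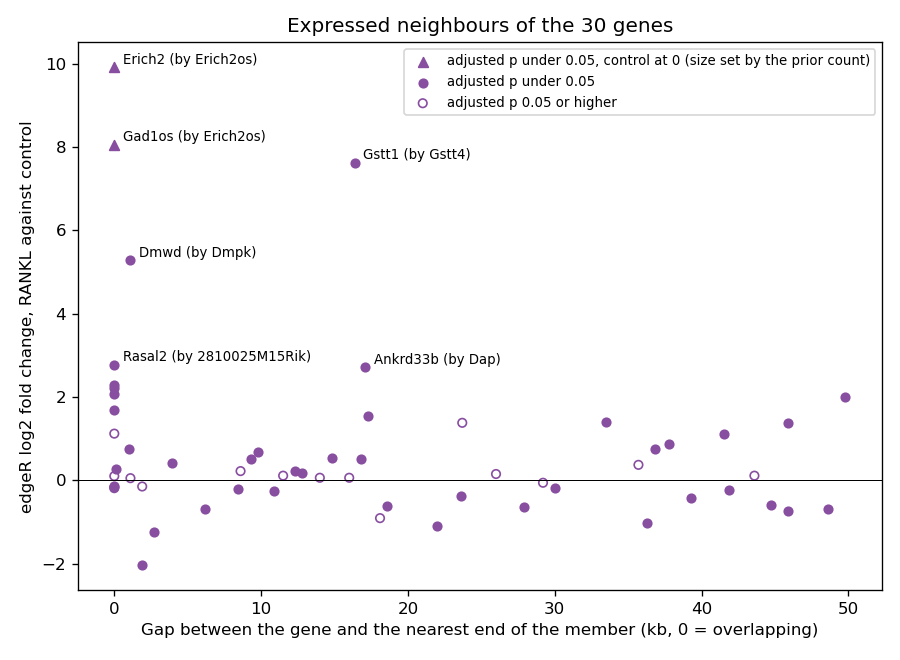
Log2 fold change of RANKL against control (edgeR) for the 59 tested genes within 50 kb of a member, by their gap to it in kb. Filled symbols passed an adjusted p under 0.05, and the largest values belong to Erich2, Gad1os, Gstt1 and Dmwd, the first 2 with control at 0, where the size depends on the prior count.

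Overlap bears on several members directly. For 8 members (26.7%) an expressed gene overlapped on the opposite strand, beside 22.8% of tested genes without a pathway. On the same strand this held for 3 members, beside 721 of 6692 such genes. These were Erich2os (with Gad1os), Tbc1d2b (with Gm16200) and Ptpn22 (with Gm15472 and Gm43065). The libraries were strand-specific according to the labels, but whether counting used the strand is not given in the sources used here, so reads of overlapping partners could not be separated. Erich2os overlaps Erich2 on the opposite strand, and both were at 0 in control. Erich2 measured 2.17 ± 0.274 FPKM in RANKL and 1.31 ± 0.127 in RANKL + UD, a fall with UD (-0.81 ± 0.203, adjusted p = 0.0036, edgeR), beside a U/R of 1.07 for Erich2os. Gad1os, on the same strand as Erich2os, was at 0 in control, 1.87 ± 0.291 FPKM in RANKL and 0.983 ± 0.11 in RANKL + UD. It too fell with UD (-1.01 ± 0.373, adjusted p = 0.0392, edgeR). Clmp, opposite Gm16096, rose with RANKL (1.69 ± 0.165) and again with UD (0.6 ± 0.139, adjusted p = 0.00172, edgeR), the same direction as the values of Gm16096. Rasal2, opposite 2810025M15Rik, rose with RANKL (2.78 ± 0.07) and fell with UD (-0.39 ± 0.062, adjusted p = 4.3e-05, edgeR), beside a U/R of 0.983 for the pseudogene. Lpgat1 opposite Gm26203, Ift140 opposite Tmem204 and Pitpnc1 opposite Gm11716 measured 23.7, 5.43 and 3.81 FPKM in control and 20.1, 5.46 and 3.19 in RANKL. Gm47863, opposite Jdp2, rose from 0.7 FPKM in control to 2.79 in RANKL (2.07 ± 0.228, adjusted p = 1.04e-07, edgeR). Gm15472 and Gm43065, on the strand of Ptpn22, rose too (2.21 ± 0.574 and 2.29 ± 0.451). Gm16200, by Tbc1d2b, did not pass the threshold (1.12 ± 0.75, adjusted p = 0.211, edgeR). Whether partner reads have a part in the levels of these members was not tested.

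Of the 30, 22 (73.3%) carried a GO term, beside 78% of tested genes without a pathway. Cytoplasm was the commonest term (10 members, beside 32.7% of tested genes without a pathway that had a GO term). Cytosol (8, beside 24.5%), plasma membrane (7) and nucleus (5, beside 35%) followed. Mitochondrion was given for 2 (beside 11.6%) and integral component of membrane for 3 (beside 17%). Plasma membrane was given for 7 members, Rab15, Tmem204, Antxr2, Plxnd1, Dmpk, Dock5 and Slc38a6, and Golgi apparatus for 3, Rab15, Lmtk2 and Sgsm1, beside 13.5% and 7.03%. GTPase activator activity was shared by Tbc1d2b and Sgsm1, negative regulation of autophagy by Ptpn22 and Dap, and recycling endosome by Rab15 and Lmtk2. These terms were carried by 1.61%, 0.249% and 0.785% of the same genes. Other terms shared by 2 members include RNA-directed DNA polymerase activity for Slc38a6 and Ranbp3l (0.402%), beside the roles given for these genes above. The deposited terms were not checked. Median exonic length was 4110 bases, against 2412 in the 67 induced genes without a pathway under a U/R of 0.85 and 3661 in all tested genes without a pathway. The median GC content of the longest transcript was 51.9% in 29 members, against 49.9% and 48.8% in these groups.

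RefSeq promoters were found for 19 members (27 windows). The median GC content of these windows was 58.3% and the median number of CpG sites 15, against 52.7% and 7 over all 32851 promoters of the table. That background, used for the motifs too, includes genes below the expression filter, unlike the members. Rab15 gave 4 of the windows and Jdp2 3. No comparison with promoters of expressed genes was made. AP-1 sites (TGANTCA) were found in 3 members (15.8%), Rab15, Gm11716 and Sgsm1, beside 8.97% of all 27025 genes with a promoter. PU.1 sites (GAGGAAG) were found in 4 members (21.1%), Plxnd1, Antxr2, Jdp2 and Ptpn22, beside 15.4%. The M-box (TCATGTG) was found in Rab15 and Lmtk2 (10.5%, beside 4.31%) and the C/EBP-ATF element (TGATGNAA) in Chchd10 and Jdp2 (10.5%, beside 4.51%). A cAMP response element (TGACGTCA) was found in Slc38a6 alone (5.26%, beside 2.03%). The E-box CACGTG and the FoxO site GTAAACA were found in 0 of 19 members, beside 8.09% and 4.05% of all genes. The NFAT core (GGAAA) was found in 10 members (52.6%, beside 64.4%), and a tandem of cores 5 to 20 bases apart on 1 strand in 0 (4.69% of all genes). The hypoxia core (ACGTG), whose letters lie inside the E-box CACGTG, was found in 3 (15.8%, beside 21.8%). Members had more windows per gene than the whole table, which raises shares by gene. By window, AP-1 sites were in 11.1% (beside 7.81% of all promoters) and PU.1 sites in 14.8% (13.6%). The M-box and the C/EBP-ATF element were each in 7.41% (3.77% and 3.97%), and the cAMP response element in 3.7% (1.79%). The NFAT core was in 51.9% (61.3%) and the hypoxia core in 11.1% (19.6%). Both strands were searched, and a match in so few windows is a description of letters and not of binding.

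Established osteoclast genes gave the setting for these levels. Of a list of 20, 18 were tested, and 17 rose and 1 (Fos) fell with RANKL, with a median log2 fold change of 3.07 (edgeR, adjusted p under 0.05). With UD, 15 fell and 1 rose, with a median of -0.63 against 0.005 over all tested genes. The gene that rose was Car2, the carbonic anhydrase that supplies protons for bone resorption, from 100 ± 3.02 FPKM in RANKL to 130 ± 2.23 in RANKL + UD (0.29 ± 0.055, adjusted p = 0.000278, edgeR). In the list of 40 osteoclast-linked genes that holds Jdp2, 20 of 33 tested genes rose and 10 fell with RANKL, with a median of 0.37, and 2 rose and 25 fell with UD, with a median of -0.48. The median edgeR log2 fold change of the 30 members with UD was -0.07 and with RANKL 2.64, values that the rule fixed in large part.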

How the data were processed

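RNA from RAW264.7 cells was sequenced in 9 libraries, and each was assigned to control, RANKL or RANKL + UD by its label. The counts are whole reads per gene as deposited by the authors, without normalization. The authors also deposited FPKM, which scale each count by exonic gene length and library total, and recomputing them gave the deposited value within 0.006 for 100% of genes. The aligner, counter and annotation are not given in the sources used here. The labels name mm10, but the deposited coordinates do not match GRCm38, so positions are given as deposited and promoters separately in GRCm38.p6. GENCODE M21 (GRCm38) gave gene type and GC content by identifier.

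For tests, 1 edgeR 4.0.16 quasi-likelihood fit (R 4.3.3, TMM factors) held all 9 libraries and the 11995 genes that reached an FPKM of 1 in 3 or more of them, with Benjamini-Hochberg adjustment and a threshold of 0.05. Depth was 15951800 to 19746862 counts, and intervals and the floor of 3 counts cover counting error only. The SE of a log2 fold change was taken as its absolute value over the square root of the F statistic, not as an output of edgeR. TMM factors were 0.959 to 0.963 in RANKL and 1.01 to 1.03 in the other libraries. The members and all lists were chosen with earlier results of these data known. Genes outside the members and lists were named after their values were seen. Members were named if they were among the highest in RANKL level, R/C or U/R, near the limit of U/R, on the osteoclast-linked list or highest within a class of GO term, and the rest were added so that all are accounted for. Alternatives were DESeq2 1.42.0, other scaling, no filter, only the libraries compared, a replicate block, each library left out in turn and other limits of the rule. The procedure was also run, after the fits, on simulated counts for 11995 genes with changes set between RANKL + UD and RANKL. That outcome is not reported here. Other steps used Python 3.11.15 (pandas 2.3.3, scipy 1.17.1, numpy 2.4.6).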

Additional observations from a re-analysis of the deposited data

How the results depend on the processing

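The set depended most on the limits of the rule. With no lower limit on R it held 124 genes, 24 with a U/R of at least 1.5 and 17 with all RANKL + UD libraries above RANKL, with a median log2 U/R of 0.145. With R at least 10 it held 16 genes, 0 of either kind, and a median of -0.056, and with U/R at least 1 it held 16 genes and a median of 0.156. The main median of 0.015 became -0.004 with a pseudocount of 1 (30 genes, 24 shared), -0.022 with FPKM rescaled by TMM factors (27 genes, 25 shared; Tmem204, Ptpn22, Sgsm1, Dock5 and Gm11716 were lost) and -0.015 with group medians (26 genes, 24 shared). Leaving out 1 library gave 28 to 34 members, a median of -0.064 to 0.026, 2 to 4 members with a U/R of at least 1.5 and 4 to 6 with all RANKL + UD libraries above. Without control replicate 3, Ifi27 and Slc38a6 dropped out, without RANKL replicate 3, Dock5 and Gm35037, without RANKL replicate 2, Gm11716, without RANKL + UD replicate 2, Tmem204 and Dock5, and without RANKL replicate 1, Tmem204, Gm26203, Gm11716 and Gm19026. Read in the replicate that had not chosen the genes, the medians were -0.039, -0.016 and -0.016. For replicate 3, 18 of 29 genes met the rule. A U/R of at least 1.5 was found in 6 genes for replicate 2 and 5 for replicate 3, and a single RANKL + UD library above its RANKL library in 13, 19 and 14 genes. Why these values moved was not tested.

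Neighbours that rose with RANKL numbered 13 of 25 (52%) within 10 kb and 47 of 147 (32%) within 200 kb, against 26 of 59 (44.1%) within 50 kb and 27.3% of all genes. The windows are nested and hold genes that overlap a member, without which the share within 50 kb was 40.4%. A trend with distance was not tested. The osteoclast genes that rose with UD were 2 instead of 1 with total counts, which shift the median gene by 0.086 with UD against RANKL and by -0.087 with RANKL against control (log2). The osteoclast-linked genes that rose with UD were 1 instead of 2 with no expression filter and without RANKL + UD replicate 2. The numbers called over all genes stayed within 1.5 times under each alternative, but total counts turned the balance with UD from more genes lower (2233 higher, 2418 lower) to more genes higher (3348 and 1709). For single members, 345 of 360 alternative log2 fold changes with RANKL and 353 of 360 with UD moved by less than the spread between replicates. That spread is the SD of the 2 groups on the log2 scale, combined as the root of their summed squares. Most alternatives left out 1 library, which moves a mean by only part of that spread. These counts were thus largely set in advance, and stability is not read from them. With UD, fitted values near 0 changed sign under 1 to 3 alternatives for 9 members: Dmpk, Plxnd1, Slc38a6, Tbc1d2b and Dmxl1 (above 0 with total counts), Erich2os (-0.16 to -0.01), Gm19026 (-0.07), Gm26203 (-0.16 to -0.1) and Pls1 (-0.04).

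Libraries with the same replicate number deviated together weakly or not at all (correlations -0.03 to 0.097), so they were taken to share only a number. The replicate block gave 3346 genes higher and 3694 lower with RANKL (3278 and 3628 without it), 2347 and 2518 with UD against RANKL (2233 and 2418) and 3268 and 3334 with RANKL + UD against control (3197 and 3276). It left 26 neighbours higher with RANKL. At this depth, Gm26203, Gm11716 and Gm35037 had 50 counts or fewer in every RANKL library.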
